A study of Mus musculus with 18 samples.

Results

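Expression of 10 genes of the epithelial-mesenchymal axis was followed in P19, an embryonic carcinoma cell line of the mouse, and in 2 lines edited from it. The genes are Vim, Fn1 and Cdh2 on the mesenchymal side, Cdh1 and Epcam on the epithelial side, and the transcription factors Twist1, Snai1, Snai2, Zeb1 and Zeb2. They were taken by symbol from the deposited expression table, in which they are 10 of 55450 genes. The WT line is Dicer (+/+), and the HetKO line carries 1 truncated loss-of-function Dicer allele made by CRISPR. The HM line was made from the HetKO line, keeps its truncated allele and carries the RNase IIIb hotspot mutation E1797G on the remaining allele, so that no full wild-type Dicer allele is left. Each genotype is represented by 1 edited or parental line, so genotype and line history cannot be told apart. Poly(A) RNA was sequenced from 6 samples of each line, 18 in all, and the values are TPM, transcript abundances corrected for transcript length and scaled to about 1000000 per sample. The labels do not say that the 6 samples of a line were separate cultures, so the p-values measure only the spread between these samples.

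Epithelial cells hold to each other through E-cadherin, the product of Cdh1, and through EpCAM, while mesenchymal cells make N-cadherin (Cdh2), fibronectin (Fn1) and the intermediate filament vimentin (Vim). Snail, Slug, Zeb and Twist proteins, encoded by Snai1, Snai2, Zeb1, Zeb2 and Twist1, repress Cdh1 and other epithelial genes during an epithelial-mesenchymal transition, and miRNAs of the miR-200 family repress Zeb1 and Zeb2. Embryonal carcinoma cells grow as compact colonies that resemble an early embryonic epithelium. Dicer cuts miRNA precursors with 2 RNase III domains, and a hotspot mutation in RNase IIIb stops the release of the strand from the 5p arm. The study picked Vim as a target of miR-17-3p from genes that fell in these same samples and were also found ligated to passenger 3p strands on AGO2. Its reporter assay with the Vim 3′ UTR and a co-transfected miRNA vector showed greater repression in HM than in WT. Because the fall in RNA was part of that choice, the Vim values in HM and WT are given as a description and are not independent evidence.

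The sequences that link these genes to miRNAs are the seeds, bases 2 to 8 of a miRNA, shown in capitals. They were taken from RefSeq with GRCm38.p6. The miR-17 hairpin gives a 5p and a 3p strand with different seeds, and the miR-200 family falls into a pair of seed groups that differ in 1 base.
miR-17-3p: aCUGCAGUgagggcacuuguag
miR-17-5p: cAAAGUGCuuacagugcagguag
miR-200b-3p: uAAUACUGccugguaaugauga
miR-200a-3p: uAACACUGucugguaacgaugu
The miR-200c-3p and miR-429-3p strands share the seed of miR-200b-3p, and miR-141-3p shares that of miR-200a-3p.

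Matches to these seeds were counted in the longest annotated 3′ UTR of each gene. The 7-base match to miR-17-3p, ACTGCAG, stood once each in Vim, Epcam and Zeb2, and in 18.7% of 12062 expressed genes with a 3′ UTR. The windows below, from GRCm38, give the match in capitals on the strand of the mRNA.
Vim, chr2:13582587-13582613, plus strand: ctttcaagtgcctttACTGCAGttttt
Epcam, chr17:87650514-87650540, plus strand: ggcagaagagctcggACTGCAGatgta
Zeb2, chr2:44984403-44984429, minus strand: cattacatcagaaggACTGCAGtgttt
Aligned without gaps to the 22 bases of miR-17-3p, the Vim site was complementary at 18 bases, including base 1 and a run of 8 outside the seed from base 12 to base 19. The Epcam site was complementary at 14 bases with a longest run of 3 outside the seed, and the Zeb2 site at 10 bases. The 7-base match to miR-17-5p, GCACTTT, was in 0 of the 10 genes and in 15.1% of the expressed genes. A match is a description of the sequence and was not tested as a site of repression.

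Zeb1 and Zeb2 held the most miR-200 matches of the 10 genes. Each had 5 matches to the miR-200b-3p seed, CAGTATT, which 16.7% of expressed genes hold, and 4 to the miR-200a-3p seed, CAGTGTT, which 22.2% hold. Fn1 and Snai2 had 1 of each, Snai1 had 1 CAGTATT, and the other 5 genes had neither. A match in the Zeb2 3′ UTR that is followed by an A is shown as an example.
Zeb2, chr2:44988098-44988126, minus strand: ctacagtgcatCAGTATTacgattcctca
The E-box to which Snail and Zeb proteins bind, CACCTG or CAGGTG (the same site on either strand), was searched in RefSeq windows of 300 bases around start sites, which were found for 5 of the 10 genes. It stood 2 times in the Epcam window and once in that of Snai1, against 20.2% of 32851 windows with at least 1, and in no window of Vim, Twist1 or Zeb2. The first match upstream of Epcam is shown.
Epcam, chr17:87635780-87635809, plus strand: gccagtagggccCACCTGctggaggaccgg

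The 6 samples of each line were matched into the 3 pairs that were most alike, a procedure that gives 3 pairs for any 6 samples. In WT and HetKO these were replicates 1 and 4, 2 and 5, and 3 and 6. In HM they were 1 and 4, 2 and 3, and 5 and 6. The pairs stood apart from all other combinations in HetKO and HM. In WT replicates 2, 3, 5 and 6 were all closely alike, so the pairs among them were less clear. For the 10 genes the spread between pair means exceeded that within pairs in 28 of 30 combinations of gene and line, with a median ratio of 3.66. The tests below count 6 samples per line, and where the same test on the 3 pair means of each line ends a call, its adjusted p is given beside the call, or for a list the number of genes called on the pair means. Differences were fitted with limma on log2(TPM + 1) over all genes that averaged 1 TPM or more in the 12 samples compared, and called at a Benjamini-Hochberg adjusted p under 0.05. On this scale the changes of weakly expressed genes are understated. Dicer1, the edited gene, was measured at 49.2 to 54.8 TPM in WT, 42.9 to 53.8 in HetKO and 35.4 to 44.2 in HM, with all HM values below those of WT (log2 fold change -0.37, adjusted p = 0.000251). TPM does not separate the alleles. Of 10 embryonal carcinoma markers, all 10 had an average of 1 TPM or more in WT and in HM and 9 in HetKO, led by Pou5f1 at 2088, 2095 and 2040 TPM in WT, HetKO and HM.

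**Figure D1:**
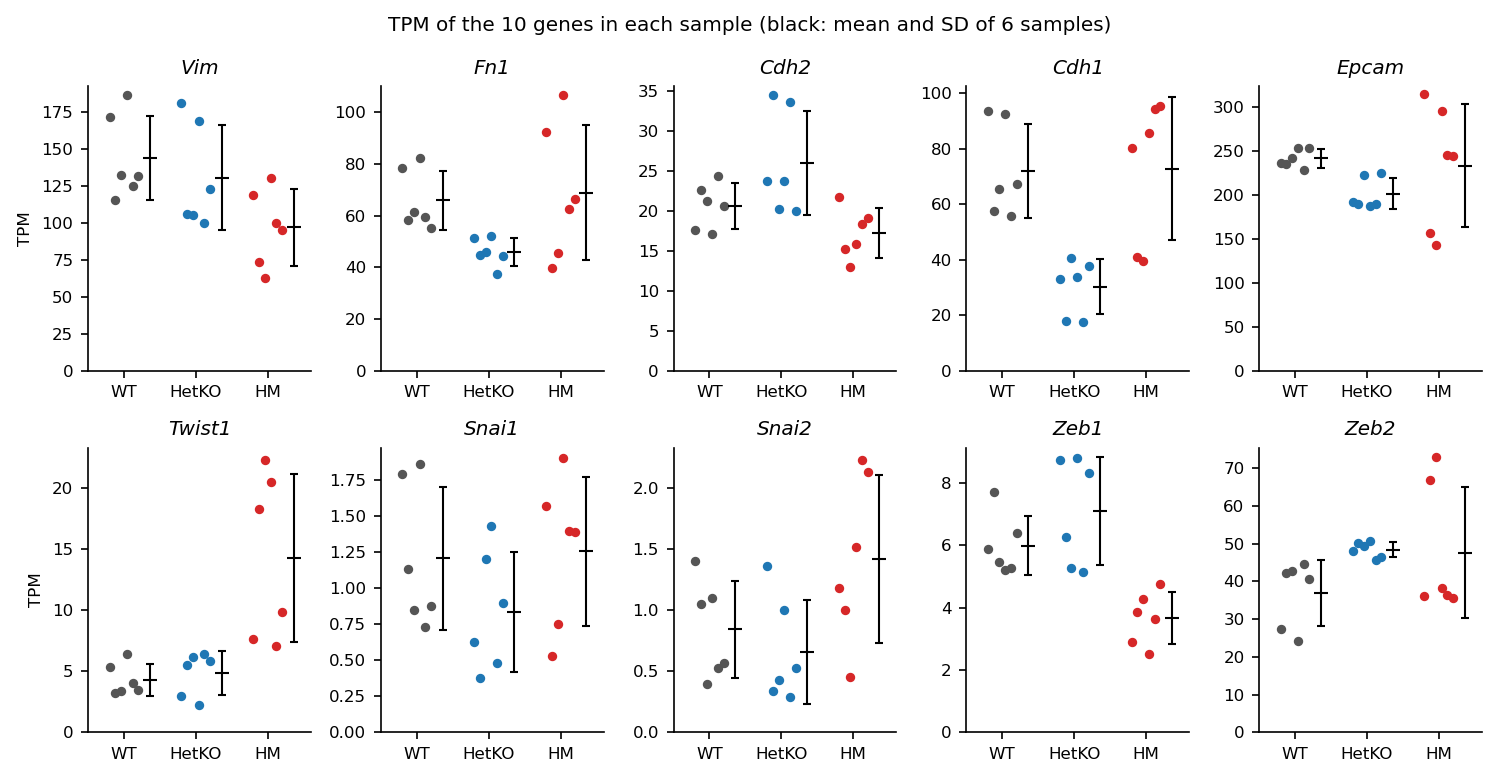
TPM of the 10 genes in each of the 18 samples, 1 panel per gene with its own axis from 0; coloured points are samples of WT, HetKO and HM in order of replicate number, and black marks show the mean and SD of 6 samples. The HM samples of Twist1 all lie above 7 TPM and those of WT below 6.4, HetKO samples of Cdh1 all lie below those of WT, and within a line the points fall into pairs.

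The 3 lines differed in different members of the axis. Between HM and WT, Twist1 rose and Zeb1 and Vim fell, 3 of 10 genes tested, where 51.4% of 14043 genes were called, 19.4% higher and 32.0% lower. Between HetKO and WT, Cdh1, Fn1 and Epcam fell, 3 of 9 genes tested, where 10.2% of 13999 genes were called, 3.71% higher and 6.44% lower. Between HM and HetKO, Cdh1 and Twist1 were higher in HM and Zeb1 and Cdh2 lower, 4 of 10 genes tested, where 34.6% of 13762 genes were called, 14.0% higher and 20.6% lower. Samples of the lines did not overlap for 2 of the 10 genes between HM and WT (Twist1 and Zeb1), as for 28.5% of all genes tested. They did not overlap for 4 of 9 between HetKO and WT (Cdh1, Fn1, Epcam and Zeb2), as for 8.21%, and for 2 of 10 between HM and HetKO (Twist1 and Zeb1), as for 15.5%. Snai2 passed the filter on low values only in the comparisons that include HM, where it was highest. The median log2 fold change of the tested genes was -0.02, -0.16 and 0.23 in these comparisons, against -0.09, -0.03 and -0.05 over all genes. On the pair means the calls of Twist1 (adjusted p = 0.023) and Zeb1 (adjusted p = 0.0483) between HM and WT remained. No call between HetKO and WT or between HM and HetKO passed limma on the pair means, where 3 and 4 genes had an unadjusted p under 0.05. The unequal-variance test per gene called 3 and 4 genes in those comparisons.

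**Figure D2:**
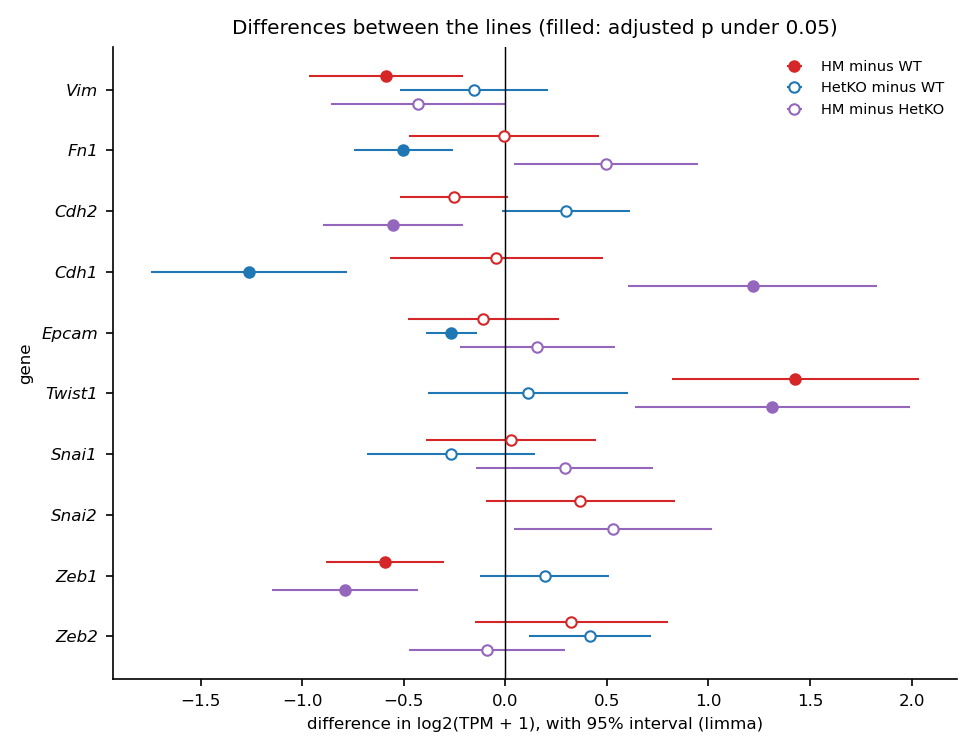
Difference in log2(TPM + 1) of each gene between lines, with the 95% interval from limma, for HM minus WT (red), HetKO minus WT (blue) and HM minus HetKO (purple); filled points passed an adjusted p under 0.05, and Snai2 has no point for HetKO minus WT. Twist1 lies at 1.43 and 1.31 in the comparisons with HM, and Cdh1 at -1.26 in HetKO against WT.

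Vim (ENSMUSG00000026728.9, chr2:13573927-13582826, plus strand) was the second most abundant of the 10 transcripts after Epcam, with its lowest level in HM. In WT the lowest, median and highest samples were 116, 132 and 186 TPM, a mean of 144 ± 28.3 (SD, n = 6). In HetKO they were 100.2, 114 and 181 TPM, a mean of 131 ± 35.4 (SD, n = 6). In HM they were 62.8, 97.7 and 131 TPM, a mean of 96.9 ± 25.8 (SD, n = 6). The lines overlapped, since HM replicates 1 and 4 lay within the WT range, and only HM replicates 2, 3, 5 and 6 lay below every WT sample. The HM mean was 0.674 of that of WT, or -0.59 as a log2 fold change (standard error 0.18, adjusted p = 0.0136). The call was lost on the pair means (adjusted p = 0.106), when samples were centred on their median (0.094), without WT replicates 1 and 4 (0.0736) and without HM replicates 2 and 3 (0.0545), with the sign kept in each. HetKO did not differ from WT beyond its spread (-0.16, 95% interval -0.52 to 0.21). HM was at -0.43 against HetKO, with an unadjusted p of 0.0497 in limma that missed the threshold after adjustment (adjusted p = 0.109). The order of the means was WT, HetKO and HM, and no neighbours in it passed at the adjusted p.

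Fn1 (ENSMUSG00000026193.15, chr1:71585520-71653200, minus strand), which encodes the matrix protein fibronectin, was lowest in HetKO. Its lowest, median and highest values were 55.4, 60.5 and 82.3 TPM in WT and 37.3, 45.2 and 52.1 TPM in HetKO. All 6 HetKO samples lay below all WT samples. The mean was 46.0 ± 5.42 TPM in HetKO (SD, n = 6) and 0.698 of that of WT, or -0.50 as a log2 fold change (standard error 0.11, adjusted p = 0.0138). The call was lost on the pair means (adjusted p = 0.334), in a single fit of the 3 lines (0.0972) and without HetKO replicates 2 and 5 (0.0526). HM spanned 39.8 to 107 TPM with a median of 64.4 and enclosed the whole WT range, with a difference from WT of 0.00 on the log2 scale (95% interval -0.47 to 0.46). Its low samples were again replicates 2 and 3, at 39.8 and 45.6 TPM, and without them HM was above HetKO by 0.79 (adjusted p = 0.00302), a difference of 0.50 that was not called with all samples (adjusted p = 0.082). Leaving out the lowest samples raises the HM mean by construction.

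Cdh1, the E-cadherin gene, was lowest in HetKO. It lies on the plus strand (ENSMUSG00000000303.12, chr8:106603351-106670246) and had its lowest, median and highest samples at 55.8, 66.2 and 93.5 TPM in WT, and at 17.7, 33.6 and 40.8 TPM in HetKO, with no overlap. The HetKO mean of 30.3 ± 9.94 TPM (SD, n = 6) was 0.421 of the WT mean, or -1.26 as a log2 fold change (standard error 0.22, adjusted p = 0.0035). The call remained in the leave-out fits, where it lay between -1.48 and -0.94, and was lost on the pair means (adjusted p = 0.202). In HM, Cdh1 was back in the WT range or above it in replicates 1, 4, 5 and 6, at 80.4 to 95.5 TPM, while replicates 2 and 3 were at 40.9 and 39.7 TPM, the level of the highest HetKO samples. The HM mean of 72.7 ± 25.8 TPM was 2.4 times that of HetKO (log2 fold change 1.22, standard error 0.28, adjusted p = 0.00632, and 0.125 on the pair means). Between HM and WT the difference was -0.04 (95% interval -0.57 to 0.48), and without HM replicates 2 and 3 it was 0.33 (adjusted p = 0.0891).

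Cdh2 (ENSMUSG00000024304.14, chr18:16588877-16809246, minus strand) was highest in HetKO and lowest in HM. Its lowest, median and highest samples were 17.1, 20.9 and 24.4 TPM in WT, 20.0, 23.8 and 34.5 TPM in HetKO, and 13.0, 17.1 and 21.8 TPM in HM, so that neighbouring lines overlapped. HM was below HetKO by 0.55 on the log2 scale (standard error 0.16, adjusted p = 0.0184). That call was lost on the pair means (0.18), after centring (0.0735), after quantile normalization (0.0562) and without HM replicates 2 and 3 (0.0741). Neither HetKO nor HM passed against WT (0.30, adjusted p = 0.203, and -0.25, adjusted p = 0.101). The ratio of Cdh2 to Cdh1 within a sample, both in TPM, was 0.306 ± 0.104 in WT, 1.04 ± 0.673 in HetKO and 0.258 ± 0.0783 in HM (SD, n = 6 each). It ran from 0.497 to 1.91 in HetKO, above every WT sample (0.185 to 0.438) and every HM sample (0.185 to 0.372). HetKO replicates 2 and 5, at 18.1 and 17.8 TPM of Cdh1 and 34.5 and 33.6 TPM of Cdh2, were the samples with more Cdh2 than Cdh1.

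**Figure D3:**
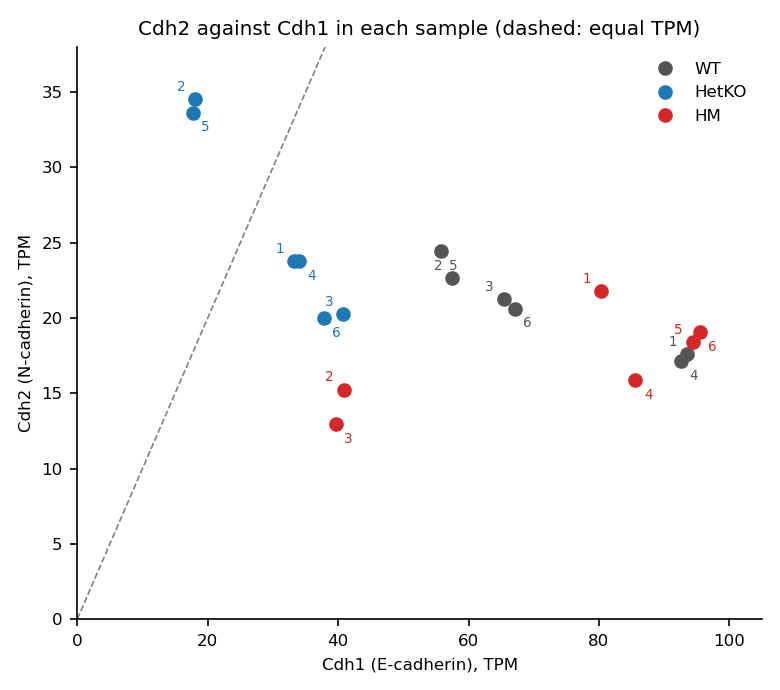
Cdh2 against Cdh1 in TPM in the 18 samples, with replicate numbers beside the points and a dashed line at equal values. HetKO replicates 2 and 5 lie above the line, the other 4 HetKO samples at a Cdh1 of 33.2 to 40.8 TPM, and HM replicates 2 and 3 apart from the other HM samples at a similar Cdh1 and a lower Cdh2.

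Epcam (ENSMUSG00000045394.9, chr17:87635979-87651129, plus strand), the epithelial adhesion molecule, was the most abundant of the 10. Its lowest, median and highest samples were 228, 239 and 253 TPM in WT and 188, 191 and 225 TPM in HetKO, again without overlap. The HetKO mean was 0.833 of that of WT, or -0.27 as a log2 fold change (standard error 0.06, adjusted p = 0.0127). The call was lost on the pair means (0.392), in the single fit of 3 lines (0.268) and without WT replicates 3 and 6 (0.0685). HM ranged from 143 to 315 TPM with a median of 245, and its replicates 2 and 3, at 156 and 143 TPM, were the lowest of all 18 samples. The HM mean of 233 ± 70.2 TPM (SD, n = 6) did not differ from WT beyond that spread (-0.11, 95% interval -0.48 to 0.26). Epcam and Zeb2, which also hold a miR-17-3p seed match, were not called in HM against WT (-0.11 and 0.33, adjusted p = 0.623 and 0.235 with limma). A link between the matches and these values was not tested.

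Twist1 (ENSMUSG00000035799.6, chr12:33957671-33959829, plus strand), a basic helix-loop-helix factor of mesoderm and neural crest, had the largest difference of the 10 genes in the comparison of HM with WT. Its lowest, median and highest samples were 3.23, 3.74 and 6.38 TPM in WT, 2.26, 5.66 and 6.43 TPM in HetKO, and 7.07, 14.1 and 22.3 TPM in HM. Every HM sample lay above every sample of both other lines, which overlapped each other. Replicates 2, 3 and 4 of HM were at 18.3 to 22.3 TPM and the other 3 at 7.07 to 9.82 TPM. Replicates 1 and 4 of HM, averaged as a pair in the test on pair means, were thus far apart, at 7.62 and 20.5 TPM. The mean rose 3.32-fold, from 4.30 ± 1.29 TPM in WT to 14.3 ± 6.87 TPM in HM (SD, n = 6 each), or 1.43 as a log2 fold change (standard error 0.28, adjusted p = 0.0011). It passed in all 15 alternative settings in which it was fitted. Against HetKO the log2 fold change was 1.31 (standard error 0.31, adjusted p = 0.00722, and 0.103 on the pair means).

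Zeb1 (ENSMUSG00000024238.15, chr18:5591860-5775467, plus strand), a zinc-finger repressor of Cdh1, fell in HM. Its lowest, median and highest samples were 5.21, 5.66 and 7.69 TPM in WT, 5.14, 7.28 and 8.79 TPM in HetKO, and 2.51, 3.75 and 4.75 TPM in HM. All HM samples lay below all WT and HetKO samples. The HM mean was 3.65 ± 0.837 TPM (SD, n = 6), which is 0.611 of that of WT and -0.59 as a log2 fold change (standard error 0.13, adjusted p = 0.00261). The call remained in all 14 alternative settings in which Zeb1 was tested. Against HetKO the log2 fold change was -0.79 (standard error 0.17, adjusted p = 0.00367, and 0.105 on the pair means).

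Zeb2 (ENSMUSG00000026872.17, chr2:44983632-45117395, minus strand), the related repressor, was expressed at a higher level than Zeb1 in every sample, and its pattern was another. Its lowest, median and highest samples were 24.2, 41.3 and 44.6 TPM in WT, 45.5, 48.8 and 50.8 TPM in HetKO, and 35.5, 37.2 and 73.0 TPM in HM. All HetKO samples lay above all WT samples, and the difference of 0.42 on the log2 scale (standard error 0.14) missed the threshold (adjusted p = 0.0746) and passed after centring (0.0289). HM replicates 2 and 3, at 66.9 and 73.0 TPM, stood above all other samples, and the other 4 HM samples lay between 35.5 and 38.1 TPM. Between HM and HetKO the difference was -0.09 (95% interval -0.48 to 0.29). Without HM replicates 2 and 3 it was -0.40 (adjusted p = 0.000725), and leaving out the highest samples lowers the HM mean by construction.

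Snai1 (ENSMUSG00000042821.7, chr2:167538195-167542814, plus strand) and Snai2 (ENSMUSG00000022676.7, chr16:14705852-14709385, plus strand), which encode Snail and Slug, were the weakest of the 10. Snai1 ranged from 0.73 to 1.86 TPM in WT, 0.38 to 1.43 TPM in HetKO and 0.53 to 1.90 TPM in HM, and no comparison was called. Snai2 ranged from 0.40 to 1.40 TPM in WT, 0.29 to 1.36 TPM in HetKO and 0.45 to 2.23 TPM in HM, where replicates 5 and 6 were highest at 2.23 and 2.13 TPM. With a mean of 0.842 TPM in WT and 0.658 TPM in HetKO, it entered the tests only through HM, at 1.42 TPM. It was not called (0.37 between HM and WT, adjusted p = 0.169, and 0.53 between HM and HetKO, adjusted p = 0.0864). Values this low are the least precise of the 10, and the number of reads behind them is unknown.

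The samples that stood apart did so over several of the genes at once. HM replicates 2 and 3 had the lowest Vim, Cdh1, Cdh2 and Epcam of HM, the lowest Fn1, and the highest Zeb2. Without them, Fn1 and Epcam were also called higher in HM than in HetKO and Zeb2 lower, and the call of Cdh2 was lost. Leaving out samples that are extreme in these same genes moves the means this way by construction, so these calls are only a description. No fit on pair means was made without HM replicates 2 and 3. HetKO replicates 2 and 5 had the lowest Cdh1 and the highest Cdh2 of all samples. They also differed in markers of other cell types. The summed level of 6 mesoderm markers was 195 and 137 TPM in them, 11.3 to 28.1 TPM in the other HetKO samples, 16.5 to 23.2 TPM in WT and 31.4 to 66.0 TPM in HM. T (Brachyury), chosen here after its values were seen in HetKO, was at 110 and 66.2 TPM in those samples and at most 9.13 TPM in the other 4. Eomes reached 80.8 TPM in HetKO, while Tbx6, Mixl1, Hand1 and Mesp1 stayed at or below 2.73 TPM there. The high mesoderm sums were thus mostly T and Eomes and not a shift of the whole list. The summed level of 8 fibroblast markers was 10.6 and 11.4 TPM in HetKO replicates 2 and 5 and 38.4 to 40.8 TPM in the other HetKO samples, 33.7 to 38.9 TPM in WT and 24.6 to 34.1 TPM in HM. Of these 8, Lum was under 0.3 TPM in the mean of every line. Thy1 was at 6.25 and 6.45 TPM in HetKO replicates 2 and 5 and at 24.1 to 27.1 TPM in the other HetKO samples. The neural sums were also lowest there, at 31.4 and 30.1 TPM against 44.2 to 61.1 TPM. So were the endoderm sums, at 5.49 and 6.31 TPM against 7.50 to 10.65 TPM. The embryonal carcinoma sums were not, at 3513 and 3589 TPM. Without HetKO replicates 2 and 5 the difference of Cdh1 from WT was -0.94 (adjusted p = 0.00396), against -1.26 with all samples, and no fit on pair means was made without them. The part of these markers in the cadherin values was not tested. In bulk RNA, fewer cells of a type and less RNA per cell cannot be told apart.

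The related epithelial genes were read from a list of 28 junction, keratin and regulatory genes. Between HetKO and WT, 12 of 27 tested were called, where 10.2% of all genes were, all 12 lower in HetKO, with a median log2 fold change of -0.64 against -0.03 over all genes. Between HM and HetKO, 13 of 25 were called, where 34.6% of all genes were, all 13 higher in HM, with a median of 0.46 against -0.05. These comparisons share the 6 HetKO samples. Between HM and WT, 11 of 27 were called, where 51.4% of all genes were, 5 higher and 6 lower, with a median of -0.22 against -0.09. After centring that split was 7 higher and 2 lower, and after quantile normalization 5 and 2. On the pair means 1, 3 and 3 genes were called in these comparisons, where 35, 454 and 3414 of all genes were. Without HetKO replicates 2 and 5, 10 of 27 were called between HetKO and WT, all lower.

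**Figure D4:**
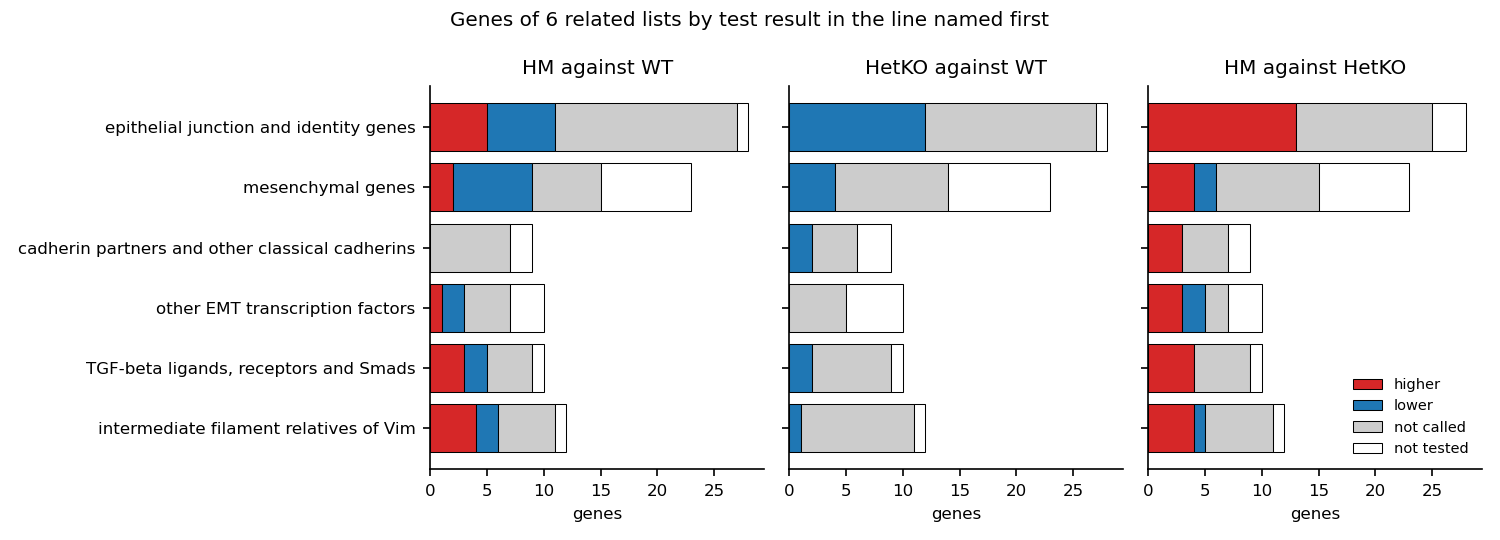
Number of genes in 6 lists of related genes that were higher (red), lower (blue), not called (grey) or not tested because of a low mean (white) in the line named first. The epithelial list has 12 genes lower and 0 higher in HetKO against WT, and 13 higher and 0 lower in HM against HetKO.

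Krt19, a simple-epithelium keratin, was almost without signal in HetKO. It was listed at 0 in 5 HetKO samples and at 0.12 TPM in the other, against 10.3 to 23.2 TPM in WT and 5.69 to 47.9 TPM in HM. It was called in both comparisons with HetKO, also on the pair means (adjusted p = 0.0031 against WT and 0.0182 against HM). The tight-junction claudin Cldn7 was at 0.00 to 0.44 TPM in HetKO, 3.61 to 20.9 TPM in WT and 0.79 to 10.4 TPM in HM, and Cldn3 at 0.00 to 0.50, 2.29 to 7.85 and 1.62 to 5.76 TPM. For both genes all HetKO samples lay below all samples of both other lines. On the pair means Cldn3 was called between HM and HetKO (adjusted p = 0.0435). Marveld2, which encodes tricellulin, was at 2.81 ± 0.57 TPM in HetKO, 4.46 ± 0.94 TPM in WT and 7.76 ± 1.21 TPM in HM (SD, n = 6 each). Of the epithelial regulators, the splicing factor Esrp1 fell in HetKO from 23.2 ± 3.9 to 7.96 ± 3.38 TPM (adjusted p = 0.00126, and 0.142 on the pair means; SD, n = 6 each), and the transcription factors Grhl2 and Ovol2 both fell by 0.73 (adjusted p = 0.0141 and 0.00459), calls lost on the pair means (0.355 and 0.273). Grhl2 and Ovol2 were higher in HM than in HetKO (0.86 and 0.84, adjusted p = 0.0283 and 0.00621, and 0.21 and 0.124 on the pair means), and Esrp1 was at 1.01 (adjusted p = 0.0535). The genes of this paragraph were named after their values were seen.

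**Figure D5:**
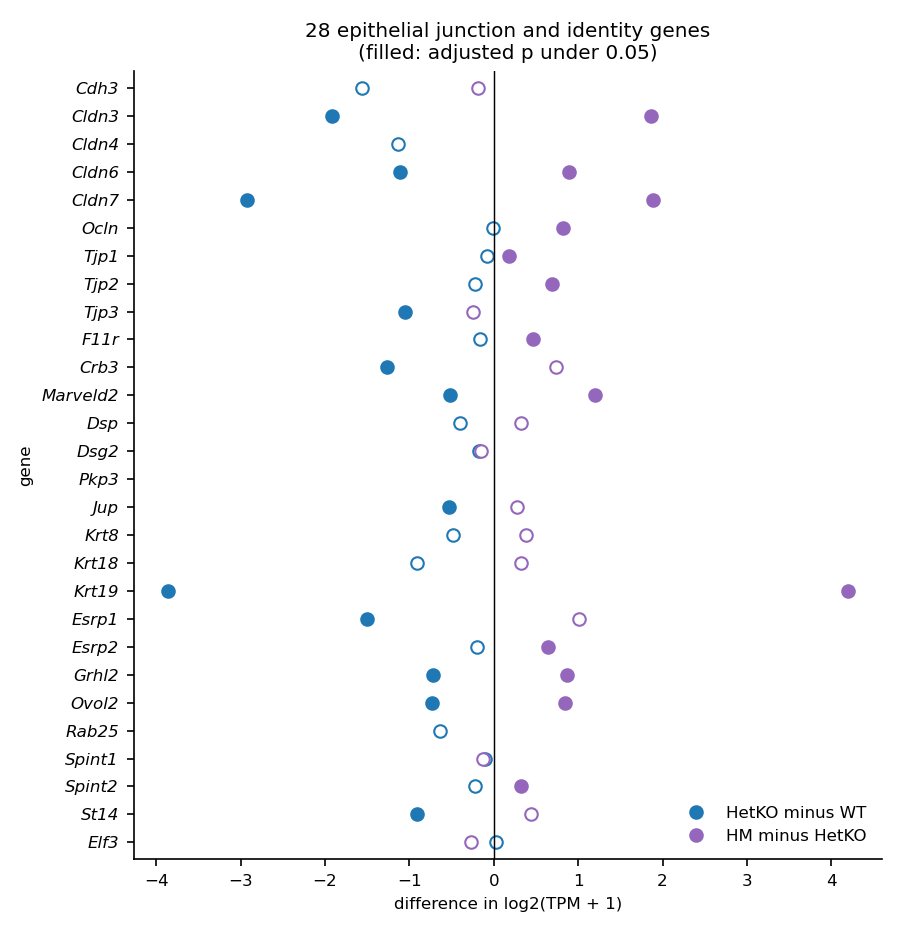
Difference in log2(TPM + 1) of the 28 epithelial genes for HetKO minus WT (blue) and HM minus HetKO (purple), comparisons that share the HetKO samples; filled points passed an adjusted p under 0.05, and genes of low mean have no point. Krt19 lies at -3.87 and 4.20, and the called genes lie to the left for HetKO minus WT and to the right for HM minus HetKO.

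Of the epithelial genes with the largest change between HM and WT, Cdh3, which encodes P-cadherin, fell from 27.5 ± 7.94 to 8.40 ± 5.65 TPM (log2 fold change -1.74, adjusted p = 0.000823). It was at 11.9 ± 8.3 TPM in HetKO, with 1.55 and 1.49 TPM in replicates 2 and 5 (SD, n = 6 for each line). Tjp3, which encodes the junction scaffold ZO-3, fell by 1.30 in HM (adjusted p = 0.00327, and 0.0527 on the pair means) and by 1.06 in HetKO (adjusted p = 0.00731, and 0.266 on the pair means). Ocln, which encodes occludin, rose by 0.81 in HM (adjusted p = 0.000734) and differed by 0.00 between HetKO and WT. Among 9 cadherin partners and other classical cadherins, 0 of 7 tested were called between HM and WT by limma (1 at an unadjusted p under 0.05) and 0 by the unequal-variance test. By limma 51.4% of all genes were called in that comparison. After centring 3 of the 7 were called, all higher (Ctnnb1, Ctnnd1 and Cdh4), and after quantile normalization 1, Cdh4. These genes were named after their values were seen. Cdh4 averaged 0.78 TPM in WT and passed the filter on low values only through HM. It was at 13.0 and 12.6 TPM in HM replicates 2 and 3 and at 0.96 to 1.67 TPM in the other HM samples. Ctnnb1, the beta-catenin gene, was at 425 ± 21.6 TPM in WT, 418 ± 37.8 TPM in HetKO and 437 ± 8.6 TPM in HM. Ctnna1, the alpha-catenin gene, was lower in HetKO than in WT by 0.17 (adjusted p = 0.0209), a call lost on the pair means (0.504) and after centring (0.0979), and was also named after its values were seen. In that comparison 2 of 6 genes of this list were called, both lower, against 10.2% of all genes. On the pair means 0 were called, and 1 had an unadjusted p under 0.05 with limma.

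Genes of the mesenchymal list were called in both directions in HM. Between HM and WT, 9 of its 15 tested genes were called, 2 higher and 7 lower in HM, where 19.4% of all genes were called higher and 32.0% lower, with a median of -0.18. The pair means gave 4 calls, 1 higher and 3 lower. After centring there were 5 calls, 2 higher and 3 lower, with a median of 0.00. Cnn1, the calponin gene, fell by 1.11 (adjusted p = 0.000204), the gelatinase gene Mmp2 by 0.74 (adjusted p = 0.000191) and the hyaluronan receptor gene Cd44 by 0.67 (adjusted p = 0.0133, and 0.122 on the pair means). The call of Cd44 was also lost after centring (0.0711) and with quantile normalization (0.0873). At a mean of 0.822 TPM in HM, Cd44 passed the filter on low values only through WT, at 1.865 TPM. The tropomyosin gene Tpm1, named after its values were seen, was at 196 ± 8.16 TPM in HM, 129 ± 18.4 TPM in WT and 65.5 ± 9.9 TPM in HetKO (SD, n = 6 each), and no samples of different lines overlapped. In HetKO, 4 of 14 mesenchymal genes were called against WT, all lower, namely Sparc, Itgb1, Cnn1 and Tpm1, with a median of -0.36, where 10.2% of all genes were called. Sparc and Itgb1 were named after their values were seen. The 4 calls were lost on the pair means (adjusted p = 0.131, 0.434, 0.232 and 0.0811), where 4 genes of the list had an unadjusted p under 0.05 with limma, and that of Itgb1 after centring (0.0764). Without HetKO replicates 2 and 5 that median was -0.09, with 3 calls. Between HM and HetKO, 6 of 15 were called, 4 higher and 2 lower, where 34.6% of all genes were, and 1 on the pair means. Of the 23 genes on the list, 8 were not tested between HM and WT because of their low mean.

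TGF-beta signalling is a pathway that induces the Snail and Zeb factors. Of 9 of its genes tested, 5 were called between HM and WT, 3 higher and 2 lower, a share near the 51.4% of all genes. On the pair means 2 were called, both higher, and the split was 4 higher and 0 lower after centring and 4 and 1 with quantile normalization. The ligand gene Tgfb1 rose from 10.9 ± 1.54 to 23.8 ± 5.36 TPM (SD, n = 6 each), a log2 fold change of 1.04 (adjusted p = 9.02e-05), and was at 6.48 ± 1.37 TPM in HetKO. The inhibitory Smad gene Smad7 rose by 1.22 (adjusted p = 0.000188). The gene of the signal-carrying Smad3 fell by 0.50 (adjusted p = 0.0173), a call lost on the pair means (0.129), after centring (0.0745) and with quantile normalization (0.0874). In HetKO against WT, 2 of 9 were called, both lower, Tgfb1 and Tgfb3, against 10.2% of all genes. These calls were lost on the pair means (adjusted p = 0.258 and 0.434), where both had an unadjusted p under 0.05 with limma. Tgfb3 was named after its values were seen, and its call was also lost after centring (0.0514). Between HM and HetKO 4 of 9 were called, all higher in HM, and 1 on the pair means, where 34.6% of all genes were called with all samples.

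Other factors of the transition gave 3 calls among 7 tested between HM and WT, 1 higher and 2 lower, where 51.4% of all genes were called. The split was 2 higher and 1 lower after centring and 3 and 2 with quantile normalization, and 1 was called on the pair means. The added higher genes were Snai3 in both settings and Twist2 with quantile normalization. Snai3 passed the filter on low values only through HM, at a mean of 1.49 TPM against 0.995 TPM in WT. Twist2 averaged 1.82 TPM in HM and 1.16 TPM in WT. Klf8, a repressor of Cdh1, fell by 0.85 (adjusted p = 0.00175). The E-protein gene Tcf12 rose by 0.26 (adjusted p = 0.00225, and 0.0798 on the pair means), and Tcf3 fell by 0.23 (adjusted p = 0.00213), a call lost after centring (0.362) and on the pair means (0.0791). In HetKO, 0 of 5 were called against WT by limma, with 2 at an unadjusted p under 0.05, and 0 by the unequal-variance test. By limma 10.2% of all genes were called there. Prrx1 and Foxc2 were at or below 0.1 TPM in the mean of every line.

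Of the other intermediate filament genes, 6 of 11 tested were called between HM and WT, 4 higher and 2 lower, a share near the 51.4% of all genes. On the pair means and after centring 4 were called, all higher, and with quantile normalization 4 higher and 1 lower. The neurofilament genes Nefh, Ina and Nefl rose in HM. Nefh was at 4.37 ± 0.892 TPM in WT and 18.5 ± 9.28 TPM in HM (log2 fold change 1.76, adjusted p = 0.000117), Ina at 6.79 ± 0.622 and 23.9 ± 9.73 TPM (1.59, adjusted p = 5.98e-05), and Nefl at 14.0 ± 4.4 and 28.8 ± 5.68 TPM (1.03, adjusted p = 0.000898; SD, n = 6 for each value). Of the same class, Nefm, named after its values were seen, was at -0.44 and not called (adjusted p = 0.0899). In HetKO against WT, 1 of 11 was called, the desmin gene Des, lower by 0.59 (adjusted p = 0.0108), a call lost on the pair means (0.268). Of all genes, 10.2% were called in that comparison. Des was named after its values were seen.

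Of the cell type markers, 5 of 10 embryonal carcinoma genes were called between HM and WT, 3 higher and 2 lower, a share near the 51.4% of all genes. The pair means gave 3 calls, and centring 7, with 5 higher and 2 lower. Sall4 fell from 24.5 ± 2.75 to 8.85 ± 6.17 TPM (adjusted p = 0.0122, and 0.0996 on the pair means), Nanog fell from 46.9 ± 15.6 to 18.8 ± 5.03 TPM (adjusted p = 0.000903), and Utf1 rose from 219.7 ± 54.1 to 381 ± 63.6 TPM (adjusted p = 0.000704; SD, n = 6 for each value). Of 6 mesoderm markers, T was higher by 1.80 and Eomes by 0.94, and Tbx6 was lower by 1.01 (adjusted p = 0.000418, 0.000145 and 0.000164), and these 3 were the ones called with no filter on low values. Mixl1, named after its values were seen, passed the filter only through HM, at a mean of 1.32 TPM against 0.725 TPM in WT, and its call (adjusted p = 0.0425) was lost on the pair means (0.22). Col1a2 and Thy1, 2 of 5 fibroblast markers tested, fell by 0.80 and 0.43 (adjusted p = 0.00346 and 5.88e-05), and the call of Col1a2 was lost on the pair means (0.058). Gata6, 1 of 2 endoderm markers tested, fell by 0.83 (adjusted p = 0.00625, and 0.0671 on the pair means), and Afp was at or below 0.01 TPM in the mean of every line. At a mean of 0.597 TPM in HM, Gata6 passed the filter only through WT, at 1.88 TPM. Neither of the 2 neural markers tested, Tubb3 and Elavl3, had an unadjusted p under 0.05 with limma. The part of these markers in the values of the 10 genes was not tested.

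The genes whose pattern over the 18 samples was most like that of Vim were Ccdc190, Cyb5r3, Uba6, Rbp7 and Atp5g2, with a root mean square difference of 0.411 to 0.501 between standardized log2(TPM + 1) values. Of 13954 genes ranked, Epcam stood at 2657 and Fn1 at 2812, and Zeb2 and Twist1 at 13282 and 13377. By this measure Vim was no closer to the other mesenchymal members than to Epcam. The genes most like Cdh1 were Plcg2, Smagp and Anxa11, at 0.192, 0.269 and 0.311. Fn1 stood at rank 188 for Cdh1, Snai1 at 263 and Epcam at 651, while Zeb1, Cdh2 and Zeb2 stood at 11804, 13084 and 13365. Plcg2 was at 40.3 ± 3.77 TPM in WT, 23.5 ± 4.7 TPM in HetKO and 38.6 ± 9.43 TPM in HM (SD, n = 6 each). These distances are a description, and they rest on samples of which some are closely alike.

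The values of the called genes were set beside those of their neighbours on the chromosome, because long stretches can differ between cell lines. Within 5 Mb of Twist1, 27 tested genes had a median log2 fold change of -0.23 between HM and WT, against 1.43 for Twist1. Within the same distance the median was -0.10 over 31 neighbours of Zeb1 and 0.01 over 28 neighbours of Vim. Around Cdh1 the median was -0.03 over 108 genes between HetKO and WT, and around Fn1 and Epcam it was -0.07 over 57 and -0.08 over 37.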

How the data were processed

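Poly(A)-selected, stranded libraries of 3 P19 lines were sequenced in pairs. According to the methods, the authors merged read pairs with BBMerge and quantified genes with RSEM, and the submitters' processing notes list cutadapt, STAR and mm10 without versions. The deposited values are TPM with 2 decimals for 55450 genes. TPM keeps no sequencing depth, so read numbers are unknown, and precision was taken from the spread between 6 samples per line. No value column was left unused. All gene identifiers matched the GENCODE M21 annotation of GRCm38, which gave positions and 3′ UTRs.

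The 10 genes and the lists of related genes were chosen with earlier results of these data known. Differences were tested with limma 3.58.1 in R 4.3.3, with a variance trend, on log2(TPM + 1), for genes averaging 1 TPM or more in the 12 samples compared. The Benjamini-Hochberg adjustment covered all genes tested. Levels, lists and sequences were handled with Python 3.11.15, pandas 2.3.3 and numpy 2.4.6. Tested on simulated data, limma recovered 175, 166 and 156 of 200 genes changed 2-fold in the comparisons of HM with WT, HetKO with WT and HM with HetKO, among 14043, 13999 and 13762 genes, with 7, 12 and 13 false calls. The simulated noise was independent for each sample, without the pairs of alike samples seen here. Its false calls therefore do not give the error rate in these data. Samples were called alike from the robust SD of their log2 difference over 683 genes averaging 200 TPM or more. It was 0.0493 to 0.105 within the alike pairs and 0.073 to 0.358 otherwise, lowest in WT, where both ranges meet. The 3 pairs of a line were the division with the lowest sum of this SD. In WT the SD was 0.073 for replicates 2 and 3, which are not a pair, and 0.0746 for the pair 1 and 4. Alternatives were a pseudocount of 0.1, no filter or a minimum of 5 TPM, centred or quantile-normalized samples, an unequal-variance test per gene, a joint fit of the 3 lines, the replicate number as a block, pair means and leaving out each pair. The list counts under these settings were added after the values were seen.

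Genes named besides the 10 were the called genes with the largest difference between HM and WT, up to 3 per list, the 5 genes most like Vim and the 3 most like Cdh1 over the 18 samples, and Dicer1. All other genes were named after their values were seen. The miRNA, Argonaute and ligation libraries of the study were not analysed here.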

Additional observations from a re-analysis of the deposited data

How the results depend on the processing

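Of 422 values of the 10 genes under alternative settings, 366 kept direction and side of the threshold, 18 lost the call, 17 gained one and 21 changed sign. The number of genes called moved by more than 1.5 times from 7220, 1421 and 4765 (HM and WT, HetKO and WT, HM and HetKO) on the pair means, to 3414, 35 and 454, and to 852 with the unequal-variance test for HetKO and WT. Leaving out a pair gave 5563 to 7442, 663 to 2508 and 2785 to 6460 genes. The lowest of the second range was without WT replicates 2 and 5 (812 without WT replicates 3 and 6) and its highest without HetKO replicates 3 and 6, and the third fell to 2873 without HetKO replicates 3 and 6 and to 2785 without HM replicates 5 and 6. Of the 10 genes, 3 were called in each leave-out fit of HM and WT (not always the same 3, since Vim was lost in some), 2 to 4 of HetKO and WT and 4 to 7 of HM and HetKO, with 7 without HM replicates 2 and 3, of which Snai2 was tested only through its higher HM values. The single fit of 3 lines left 1 for HetKO and WT, and the pair means 0 there and for HM and HetKO. Centring moved the share of called genes that were higher from 37.7% to 61.0% (HM and WT), 36.5% to 50.7% and 40.4% to 60.9%, and quantile normalization to 51.1%, 48.1% and 49.3%. The median over all genes moved from -0.09 to 0.08 and 0.02 between HM and WT. Signs changed where differences were near 0. Between HM and WT, centring gave 0.17 for Fn1, 0.13 for Cdh1 and 0.070 for Epcam. Leaving out a pair gave -0.31 to 0.29 for Fn1, -0.28 to 0.33 for Cdh1, -0.33 to 0.18 for Epcam and -0.13 to 0.24 for Snai1. In the same fits, HetKO minus WT ran from -0.39 to 0.011 for Vim and -0.049 to 0.43 for Twist1. HM minus HetKO ran from -0.064 to 0.45 for Epcam and -0.40 to 0.073 for Zeb2, which was at 0.025 after centring. The cause of these changes was not tested. With the replicate block, 6889, 1206 and 4200 genes and 3, 3 and 5 of the 10 were called, the added one being Vim between HM and HetKO. Deviations of same-numbered samples correlated weakly, at 0.00512, 0.0621 and 0.0206 on average. Of 6 pairs, 1, 1 and 2 exceeded 0.1, and 2, 7 and 2 of 12 samples correlated best with their own number. Between HetKO and WT the correlations were all above 0, at 0.0246 to 0.116. Whether equal numbers pair the samples of HetKO and WT was not tested.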
